A study of Mus musculus with 6 samples.

Results

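The loci described here are polyadenylated transcription units of mouse embryonic stem (ES) cells that start next to a protein-coding gene and run away from it on the opposite strand. They were taken from the authors' transcript assembly by position alone. A locus was a member when all of its assembled transcripts were classed as intergenic, its nearest coding locus lay on the other strand with the member upstream of that gene's 5′ end, and at most 10 kb separated their spans. Chromosomes X and Y were left out. Of the 18420 loci in the count table, 2075 were intergenic and 310 met this rule, and they are called divergent loci below. Their 308 nearest coding loci are called partners, since Msx2 and Nfib each have a pair of divergent loci.

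RNA had been sequenced from 2 groups of 3 libraries. The day 0 group was undifferentiated ES cells of an Nkx2.5-EmGFP reporter line (subline E14Tg2A.4), kept in LIF on embryonic fibroblast feeders or on gelatin. The day 6 group was the same line 6 days after cardiac differentiation was started by aggregation into embryoid bodies in hanging drops. All 6 libraries carry the reporter transgene, which puts a green fluorescent protein under the regulatory DNA of a cardiac transcription factor. The line is a single subline, its strain is 129/OlaHsd in the growth protocol and C57BL/6J in the strain label, and nothing in the labels says that the replicates came from separate cultures, so p-values measure only the spread between these libraries.

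Many mammalian promoters, above all those rich in CG dinucleotides, load RNA polymerase II in both directions. The antisense transcript made upstream of the gene is usually short, is cut at early polyadenylation signals and is degraded by the nuclear exosome. Some divergent transcripts are instead spliced, polyadenylated and kept as long noncoding RNAs, and these often sit next to developmental regulators. Every value here comes from poly(A)-selected RNA, so RNA without a poly(A) tail is largely missed. The stability of the transcripts was not tested.

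Most divergent loci started close to the partner. The gap between the spans was 10 bases at the least, 367 bases at the median and 9970 bases at the most. At 140 of the 310 loci it was at most 250 bases, and at 57.7% at most 1 kb. Intergenic loci within 10 kb in the other arrangements lay farther off, with 36.0% of 197 upstream loci on the same strand, 29.2% of 137 downstream loci on the same strand and 24.6% of 118 downstream loci on the opposite strand within 1 kb. Their median gaps were 2858, 2971 and 2889 bases. Divergent loci mostly had few exons, with 184 of 2 exons, 85 of 3 and 41 of 4 or more, up to 17 beside Grb10. The median exonic length was 3300 bases, against 3135 bases for the other intergenic loci. No exonic base was shared with another locus on either strand at 286 loci, while 16 shared more than 50% of their exonic bases. Reads of those 16 cannot be assigned with certainty, because the sources used here do not say whether counting used strand.

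**Figure D1:**
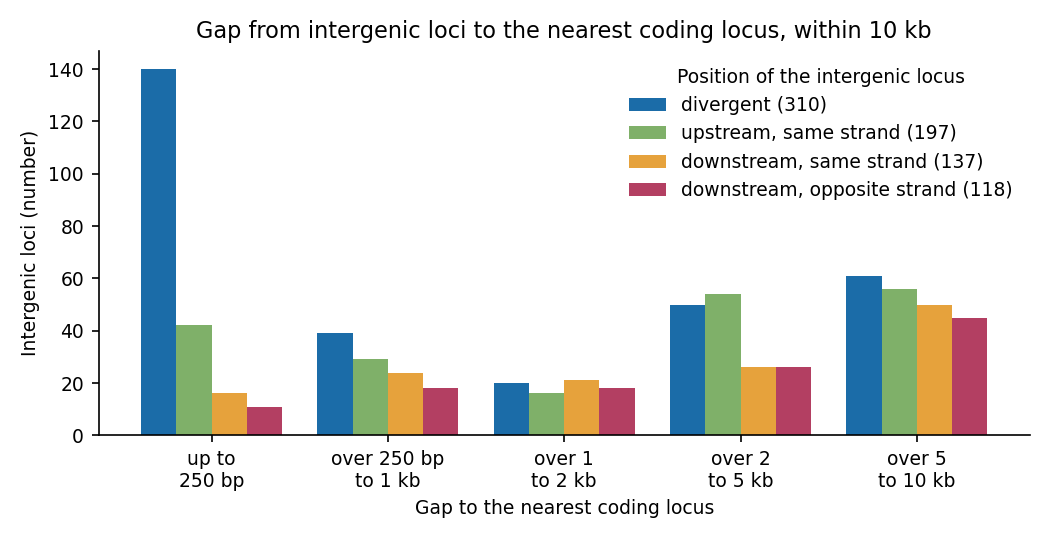
Number of intergenic loci (vertical axis) by gap to the nearest coding locus (horizontal axis, 5 classes) for the 4 arrangements within 10 kb. The tallest bar is the 140 divergent loci with a gap of at most 250 bases.

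The promoters of 5 partners are shown because each stands for one kind of pair: the divergent locus fell alone beside Uso1, both loci fell at Pcsk6 and Ripk3, both rose at Adamts2, and they moved in opposite directions at Fnbp1l. Each run is the 250 bases before the RefSeq start (GRCm38.p6), read 5′ to 3′ toward the gene, with CG dinucleotides in capitals. Gaps of 170, 56, 62, 92 and 65 bases were measured in the authors' mm9 positions, and the divergent start was not placed within the printed run.
Uso1 (chr5:92137688-92137937, plus strand): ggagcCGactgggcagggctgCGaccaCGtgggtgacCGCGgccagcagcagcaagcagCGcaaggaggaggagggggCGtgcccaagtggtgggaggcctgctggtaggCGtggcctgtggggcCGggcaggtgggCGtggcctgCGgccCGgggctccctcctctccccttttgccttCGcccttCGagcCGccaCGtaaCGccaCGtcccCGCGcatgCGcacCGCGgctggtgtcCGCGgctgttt
Pcsk6 (chr7:65861886-65862135, plus strand): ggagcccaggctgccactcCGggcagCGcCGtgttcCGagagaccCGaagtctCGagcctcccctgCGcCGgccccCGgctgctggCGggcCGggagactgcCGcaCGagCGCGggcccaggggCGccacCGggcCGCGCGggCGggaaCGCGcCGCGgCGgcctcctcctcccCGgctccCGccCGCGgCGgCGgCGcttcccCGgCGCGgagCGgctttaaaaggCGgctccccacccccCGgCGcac
Ripk3 (chr14:55788858-55789107, minus strand): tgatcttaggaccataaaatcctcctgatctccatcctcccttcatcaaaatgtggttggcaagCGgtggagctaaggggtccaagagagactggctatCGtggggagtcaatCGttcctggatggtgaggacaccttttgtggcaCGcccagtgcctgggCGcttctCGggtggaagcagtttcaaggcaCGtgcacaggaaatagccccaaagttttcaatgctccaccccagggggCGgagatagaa
Adamts2 (chr11:50601835-50602084, plus strand): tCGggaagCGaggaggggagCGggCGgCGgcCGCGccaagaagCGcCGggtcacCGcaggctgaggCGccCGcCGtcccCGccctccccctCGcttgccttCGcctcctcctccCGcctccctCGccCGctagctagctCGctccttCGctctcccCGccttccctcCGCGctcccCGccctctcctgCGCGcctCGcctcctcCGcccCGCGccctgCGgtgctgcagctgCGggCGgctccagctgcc
Fnbp1l (chr3:122619715-122619964, minus strand): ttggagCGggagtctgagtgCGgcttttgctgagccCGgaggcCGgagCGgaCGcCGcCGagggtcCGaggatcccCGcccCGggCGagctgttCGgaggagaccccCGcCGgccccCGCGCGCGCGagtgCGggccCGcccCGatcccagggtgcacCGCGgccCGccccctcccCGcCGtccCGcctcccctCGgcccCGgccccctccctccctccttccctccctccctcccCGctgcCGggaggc
The runs hold 25, 40, 8, 34 and 33 CG dinucleotides respectively. Ripk3 is the one poor in them, with a GC content of 54% against 73.2% at Uso1 and 78 to 81.2% at the other 3.

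Partners with a gap of at most 1 kb had RefSeq promoters dense in CG. Over the 100 of them with a single start in the RefSeq table, the median was 20 CG dinucleotides and 65.2% GC in 250 bases, against 15 and 59.6% for 7462 named coding loci tested here and 5 and 52% for 22856 genes in the table. With gaps over 5 to 10 kb the median was 17 over 33 partners. The assembled start lay 0 to 76 bases upstream of the RefSeq start at the 5 printed partners. At some other close partners it lay far upstream, by 366398 bases at 2410141K09Rik, 107302 at Dlgap4, 55307 at Lima1 and 39448 at Casc1. There the 250 bases are not those facing the divergent locus. Short motifs were searched on both strands of the same 250 bases. The GC box core GGGCGG occurred in 71% of the close partners, in 57.3% of the named coding loci and in 32.4% of all genes. The TATA box core TATAAA occurred in 3%, 7.57% and 13.6%, and CCAAT in 39%, 35.4% and 34.7%. GGGCGG can overlap a CG dinucleotide by its own letters. Among the 5 runs above, GGGCGG was found in all but Uso1, and TATAAA and CCAAT in none.

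Divergent loci were expressed at a low level. Their median over the 272 that could be tested was 46.7 normalized counts, or 14.2 per exonic kilobase, against 235 per exonic kilobase for tested coding loci. Within the 255 pairs with both loci tested, the partner was above the divergent locus per exonic kilobase in 91.0% of pairs, by a median of 37.0 times. Another 38 divergent loci were below the minimum of 10 normalized counts in 3 libraries, and none of them exceeded 33.1 in any library. For 13 of the 310 the partner has no row in the count table.

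Among pairs with both loci tested, the 3 divergent loci highest per exonic kilobase had 2 or 3 exons and kept a high level at both days. XLOC_024893 (chr4:148516530-148517658, mm9), divergent from Cenps, a centromere protein gene, at a gap of 4779 bases, was measured at 6209, 8254 and 6560 normalized counts at day 0 and 7406, 8421 and 7736 at day 6. At 6582 normalized counts per exonic kilobase it stood above Cenps, at 781. XLOC_020490 (chr2:28332620-28334075), 420 bases from Gbgt1, a glycosyltransferase gene, reached 5360 per exonic kilobase against 68 for Gbgt1. XLOC_036797 (chr9:90013501-90015550), 3842 bases from Morf4l1, a chromatin protein gene, reached 1143 against 338. The groups overlapped at these 3 loci and none passed the test (limma adjusted p of 0.391, 0.627 and 0.833). Gbgt1 itself fell, from 720, 575 and 730 normalized counts to 231, 250 and 325 (log2 change −1.33 ± 0.25 SE, limma adjusted p = 0.003), so the ratio of XLOC_020490 to it rose by 1.48 ± 0.45 on the log2 scale (limma adjusted p = 0.0218).

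Between the days, 47 divergent loci rose and 58 fell of 272 tested (limma on log2 of the normalized count plus 1, Benjamini-Hochberg adjusted p under 0.05 over 17145 loci). That is 38.6%, below the background in this fit, since 44% of all tested loci passed, 22.2% higher and 21.8% lower at day 6. Under quantile normalization 124 of the 272 passed, a share slightly above the 44.2% of all tested loci. Among coding loci 44.1% passed, 23.9% higher and 20.2% lower. Rises ran from 0.89 to 4.46 on the log2 scale and falls from −0.84 to −5.82. In bulk RNA, fewer cells of a type and less RNA per cell cannot be told apart. Day 0 replicate 3 held the highest day 0 value of 37 of the 58 fallen loci, against 8 for replicate 1 and 13 for replicate 2. For the 47 risen loci these counts were 19 for replicate 3, 19 for replicate 1 and 9 for replicate 2. The same count was not made over all tested loci. Day 0 replicate 3 also had the highest summed level of 7 fibroblast feeder markers, 223756 normalized counts. The sums were 102393 and 52631 in the other day 0 libraries and 108097 to 149475 at day 6. The part of feeder RNA in the falls was not tested. Without day 0 replicate 3, 52 divergent loci rose and 32 fell of 257 tested, and 36.2% of all tested loci passed. Leaving out day 6 replicate 1, 2 or 3 gave 26, 28 and 29 rises and 43, 37 and 47 falls of 264, 265 and 265 tested. The share called over all tested loci was then 29.6, 28.6 and 32.3%.

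Direction varied with the gap. Of 164 divergent loci at most 1 kb from the partner, 32 rose and 21 fell, a median log2 change of 0.18. At over 1 to 2 kb 1 rose and 5 fell of 17, at over 2 to 5 kb 4 rose and 10 fell of 40, and at over 5 to 10 kb 10 rose and 22 fell of 51, with medians of −0.32, −0.65 and −0.75. Farther divergent loci, more than 10 kb away, gave 34 rises and 97 falls of 230, with a median of −1.03. All intergenic loci outside the divergent set gave 170 rises and 497 falls of 1355, a median of −0.75, while the median over all tested loci was 0.02. The close divergent loci therefore lay nearer to coding loci, whose median was 0.06, than to the other intergenic loci. The differences between these sets were not tested.

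**Figure D2:**
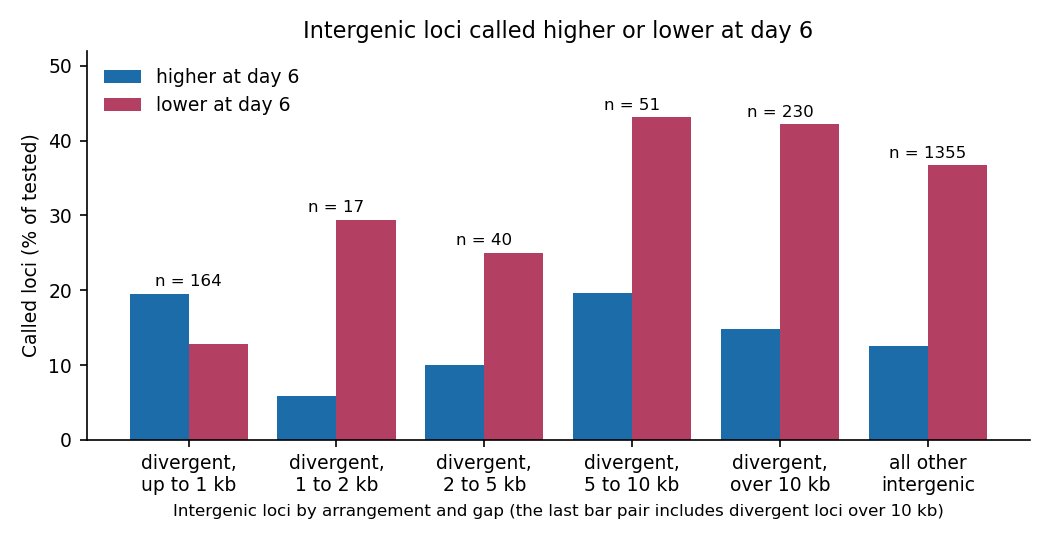
Percentage of tested intergenic loci higher (blue) or lower (red) at day 6, by arrangement and gap, with the number tested above each pair of bars. Rises exceed falls only in the class up to 1 kb, 32 against 21 of 164 loci.

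The balance of rises and falls depended on the scaling. Under quantile normalization 73 divergent loci rose and 51 fell, so that rises made up 58.9% of calls in place of 44.8%; within 1 kb the share went from 60.4 to 77.6% and for the other intergenic loci from 25.5 to 33.1%. Without day 0 replicate 3 these shares were 61.9, 78 and 35.1%, and without day 0 replicate 2 they were 39, 50 and 29.2%. In each of these settings, the share of rises was higher within 1 kb than among the other intergenic loci.

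Divergent loci and their partners mostly moved the same way. In 62 of the 255 pairs both loci passed the test, and 54 of these 62 (87.1%) moved in the same direction, 30 up and 24 down. The coding locus on the other side of the divergent locus, a median of 40.2 kb away, gave 22 of 42 (52.4%). Across pairs, the log2 changes had a Pearson r of 0.54 and a Spearman rho of 0.53 for the partner (255 pairs) and 0.14 and 0.07 for the locus on the other flank (221 pairs). These correlations are descriptions, because all pairs share the same 6 libraries. Partners themselves rose in 66 and fell in 50 of the 255 pairs.

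Likeness to the partner was seen in each class of gap. Up to 1 kb, 30 of 33 pairs with both loci called moved together, followed by 3 of 4, 9 of 10 and 12 of 15 in the classes over 1 to 2, over 2 to 5 and over 5 to 10 kb. Spearman rho was 0.56, 0.46, 0.59 and 0.51 over 159, 14, 35 and 47 pairs. Beyond 10 kb, divergent pairs moved together in 52 of 69 cases (75.4%), with a rho of 0.35.

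**Figure D3:**
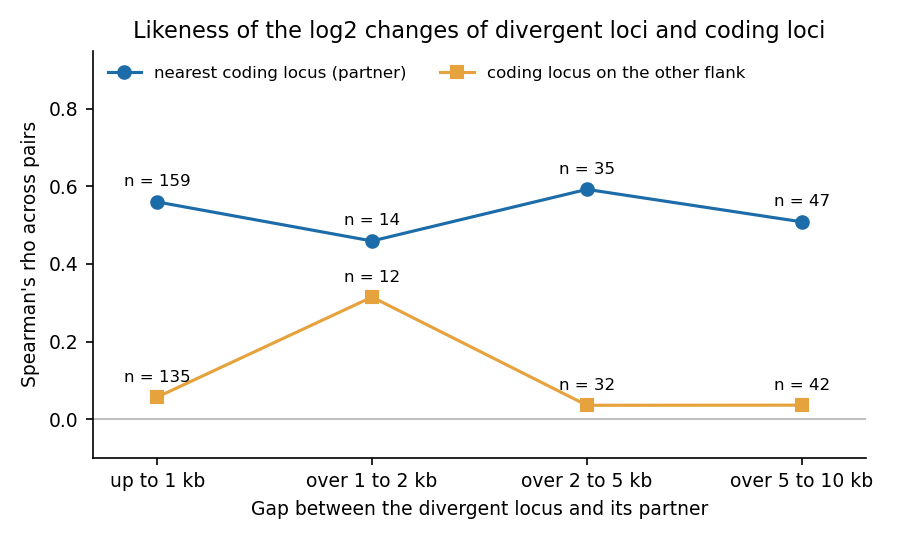
Spearman's rho between the log2 changes of divergent loci and of a coding locus (vertical axis) by gap to the partner (horizontal axis). Blue circles are the partner, 0.46 to 0.59 in the 4 classes, and orange squares the coding locus on the other flank, with the number of pairs beside each point.

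Likeness was also seen in other arrangements, and the differences between arrangements were not tested. Within 10 kb, 32 of 36 pairs moved together for upstream loci on the same strand, 21 of 23 for downstream loci on the same strand, 12 of 17 for downstream loci on the opposite strand and 22 of 24 for intergenic loci that overlap a coding span. Spearman rho was 0.40, 0.58, 0.26 and 0.49. Other arrangements beyond 10 kb gave 105 of 158 (66.5%) and 0.23.

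Differences between replicate libraries, which carry no change of stage, showed a weaker likeness of the same kind. Over the 255 pairs, Pearson r between divergent locus and partner was 0.41, 0.39 and 0.26 for the differences between day 0 libraries (2 minus 1, 3 minus 1 and 3 minus 2), and 0.16, 0.10 and −0.01 with the locus on the other flank. Between day 6 libraries it was 0.17, 0.18 and 0.21 with the partner and −0.05, 0.09 and −0.01 with the other flank.

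The size of the change was compared within each library through the ratio of divergent locus to partner. The ratio changed in 72 of the 255 pairs (limma adjusted p under 0.05 over 1503 pairs of an intergenic locus and its nearest coding locus), 25 up and 47 down. This share of 28.2% compares with 42.3% of all 1503 pairs and 45.2% of the pairs outside the divergent set. Without day 6 replicate 1, 2 or 3 the ratio changed in 38 of 244, 36 of 246 and 46 of 246 divergent pairs. By gap it changed in 30 of 159 pairs up to 1 kb, 6 of 14 over 1 to 2 kb, 9 of 35 over 2 to 5 kb and 27 of 47 over 5 to 10 kb, where 24 of the 27 fell. The median absolute change of the ratio was 0.60 on the log2 scale up to 1 kb and 1.43 over 5 to 10 kb.

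In the 30 pairs that rose together, the median change was 2.095 for the divergent locus and 1.849 for the partner, and the ratio passed the test in 8. In the 24 that fell together the medians were −1.893 and −1.829, and the ratio passed in 5. Another 38 pairs were called at the divergent locus only. Of these 16 rose, 13 of them within 1 kb, and 22 fell, 14 of them over 5 to 10 kb away, and the ratio itself changed in 8 and 20 of them. In 54 pairs the partner alone passed, and in 101 pairs neither did.

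**Figure D4:**
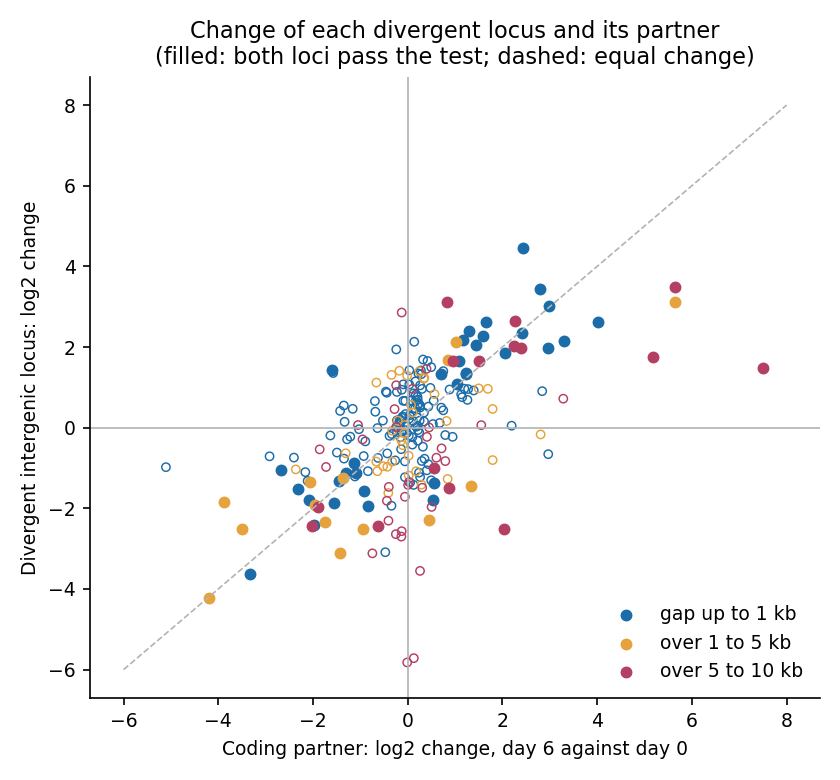
Log2 change, day 6 against day 0, of each divergent locus (vertical axis) and its partner (horizontal axis) for 255 pairs, coloured by gap. Filled points are the 62 pairs with both loci called, 54 of which lie in the lower left and upper right.

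One of the pairs of loci that rose together was at Msx2. This gene, which encodes a homeobox transcription factor and responds to BMP signalling, rose from 503, 345 and 461 normalized counts to 24724, 21806 and 18594 (log2 change 5.64 ± 0.20 SE, limma adjusted p = 2.62e-06). Its divergent loci XLOC_008729 (chr13:53569237-53573555) and XLOC_008730 (chr13:53573633-53601047) follow each other at gaps of 1087 and 5483 bases. The farther one rose from 109.9, 72.5 and 43.9 to 878, 684 and 855 and the nearer from 20.1, 17.6 and 6.98 to 139.9, 112 and 125. Both groups were fully apart at all 3 loci. The divergent loci rose less than Msx2, by 3.49 ± 0.36 and 3.11 ± 0.43, and their ratios to it fell by 2.16 and 2.53 (limma adjusted p of 0.00417 and 0.00228).

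The largest rise of a divergent locus was at XLOC_017031 (chr18:22493510-22502594), which lay 124 bases from a partner that could not be named, XLOC_016686 (chr18:22502719-22688728). It went from 16.6, 25.9 and 14.0 to 463, 420.3 and 387 normalized counts, a log2 change of 4.46 ± 0.33. The partner went from 619, 545 and 708 to 3295, 3451 and 3293, a change of 2.43 ± 0.18, and here the ratio rose by 2.03 ± 0.44 (limma adjusted p = 0.00458). XLOC_016952 (chr18:81183826-81188983), 235 bases from Sall3, a zinc finger transcription factor gene, rose from 6.98, 25.9 and 8.97 to 149, 131 and 136. Sall3 was measured at 1.74, 4.14 and 0.997 and then 18.3, 29.7 and 14.6 normalized counts. It stood below the divergent locus per exonic kilobase, at 1.1 against 15.0. Sall3 reached the minimum count for testing at day 6 alone. Its log2 change was 2.79. In the 12 other settings where it could be tested, this ranged from 1.97 to 3.18, smallest with a pseudocount of 4. XLOC_012328 (chr15:101836900-101843497) rose by 3.01 ± 0.67 beside the unnamed XLOC_012972 (chr15:101776435-101836243; 2.99 ± 0.26), next to Krt18, a simple epithelial keratin gene, which rose by 3.32.

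At Grb10, an imprinted gene for an adaptor that restrains insulin and growth factor signalling, the divergent locus had the most exons of all 310. XLOC_004337 (chr11:11937677-12097381, 17 exons, gap 253 bases) rose from 300.1, 205 and 254 normalized counts to 1090, 982 and 884 (1.97 ± 0.24, limma adjusted p = 0.000374). Grb10 rose from 28364, 29007 and 30838 to 241573, 241701 and 205135 (2.96 ± 0.13). The 2 groups stood apart at both loci, and the ratio missed the threshold (−0.99 ± 0.38, limma adjusted p = 0.0593).

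Among the closest pairs with both loci called, Adamts2, a procollagen processing protease gene, rose from 916, 458 and 1584 to 14098, 15084 and 13494 normalized counts. XLOC_005417 (chr11:50407756-50415418), 92 bases away, rose from 21.8, 14.5 and 39.9 to 129.8, 168 and 147. Day 0 replicate 3 was the highest of its group at both loci and day 0 replicate 2 the lowest. The divergent locus rose less (2.61 ± 0.41 against 4.02 ± 0.39; ratio −1.42 ± 0.38, limma adjusted p = 0.013). At Lrrc1, a polarity scaffold gene, the changes were alike in size, 1.36 ± 0.28 for XLOC_036744 (chr9:77392741-77394770, gap 81 bases) and 1.23 ± 0.15 for Lrrc1, with a ratio change of 0.13 ± 0.39 that did not pass.

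Pairs that fell together included Pcsk6, a proprotein convertase gene that acts on Nodal, and Ripk3, a kinase gene of necroptosis, whose promoters are printed above. XLOC_033027 (chr7:73004074-73006965, gap 56 bases), which matches the annotated noncoding gene Gm20684, fell from 569, 354 and 411 to 209, 164 and 236 (−1.11 ± 0.28, limma adjusted p = 0.0135). Pcsk6 fell from 7168, 9131 and 5307 to 3080, 3224 and 3620 (−1.09 ± 0.21), and the ratio moved by −0.02 ± 0.44. XLOC_010638 (chr14:56407757-56414475, gap 62 bases) fell from 134, 151 and 208 to 96.3, 81.0 and 85.6 (−0.88 ± 0.29, limma adjusted p = 0.0397), and Ripk3 from 4248, 3855 and 5159 to 2117, 1843 and 2058 (−1.13 ± 0.17). The call at XLOC_010638 was lost in 7 of 16 other settings, among them without day 0 replicate 3 (limma adjusted p = 0.0957) and without each day 6 replicate (0.104 to 0.157). That at XLOC_033027 was lost without day 6 replicate 1 or 2 (0.052 and 0.0768).

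The steepest joint fall was at Fcgr2b, an inhibitory Fc receptor gene of immune cells. XLOC_000656 (chr1:172912425-172917443, gap 3631 bases) went from 420.5, 471 and 867 normalized counts to 26.4, 33.8 and 26.1 (−4.24 ± 0.35, limma adjusted p = 6.62e-05). Fcgr2b went from 612, 393 and 967 to 34.5, 30.8 and 33.4 (−4.19 ± 0.36). Day 0 replicate 3 was the highest library at both, and the groups did not overlap. Per exonic kilobase the divergent locus was the higher one, 67.6 against 39.6 normalized counts. Chrna1, a muscle acetylcholine receptor subunit gene, fell by 2.07 ± 0.39 with the 8-exon locus XLOC_019309 (chr2:73422905-73437499, gap 4482 bases; −1.34 ± 0.39), which matches the annotated noncoding gene Chn1os3. The call at XLOC_019309 was lost without any one library other than day 0 replicate 2 (limma adjusted p from 0.0504 to 0.0896).

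In other pairs the divergent locus fell alone. XLOC_025347 (chr4:88745781-88774509), which matches the noncoding gene Gm12602, lay 8430 bases from Mtap, a methionine salvage enzyme gene. It went from 446, 331 and 756 normalized counts to 9.13, 7.18 and 8.35 (−5.72 ± 0.38, limma adjusted p = 2.5e-05). XLOC_025347 reached the minimum count for testing at day 0 alone. In the 13 other settings where it could be tested, its log2 change ranged from −5.98 to −5.32, smallest with a pseudocount of 4. Mtap was measured at 9654, 14318 and 14806 and then 13270, 15230 and 13227, with overlapping groups (0.13 ± 0.19, limma adjusted p = 0.605). The ratio fell by 5.84 ± 0.44 on the log2 scale.

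XLOC_010994 (chr14:30599857-30762769), 7885 bases from Selenok, a selenoprotein gene of the endoplasmic reticulum, went from 283, 1678 and 442 to 9.13, 8.20 and 11.5 (−5.82 ± 0.61). Day 0 replicate 2 stood far above the other day 0 libraries, while Selenok overlapped between days (−0.01 ± 0.28, limma adjusted p = 0.977). XLOC_000442 (chr1:120966138-120999569), 9725 bases from Gli2, a transcription factor gene of Hedgehog signalling, went from 397, 547 and 858 to 44.6, 39.0 and 62.6 (−3.55 ± 0.36). Gli2 overlapped between the days (0.26 ± 0.27, limma adjusted p = 0.469), and Inhbb, the activin beta-B gene on the other flank of XLOC_000442, fell by 5.62.

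Uso1, a vesicle tethering protein gene of the Golgi, gave the one case with a gap under 250 bases among the 5 largest falls of loci whose partner was also tested and whose own mean normalized count reached 100 at one day or both. XLOC_027730 (chr5:92555673-92566793, gap 170 bases) fell from 122, 215 and 331 to 34.5, 19.5 and 18.8 (−3.09 ± 0.44, limma adjusted p = 0.000898). Uso1 was at 14557, 29079 and 19974 and then 13659, 15130 and 15289, so the groups overlapped (−0.47 ± 0.23, limma adjusted p = 0.135). Both the divergent locus and its ratio to Uso1 fell, the ratio by 2.62 ± 0.48. Uso1 itself passed the test, lower at day 6, without day 0 replicate 1 (limma adjusted p = 0.0134) and under quantile normalization (0.0257). A rise of the divergent locus alone was seen at Fxr1, an RNA-binding protein gene, where XLOC_023043 (chr3:33873351-33918774, gap 167 bases) went from 1268, 1182 and 1652 to 2420, 2722 and 2377 (0.89 ± 0.19). The ratio to Fxr1 missed the threshold there (1.11 ± 0.43, limma adjusted p = 0.0571), and under quantile normalization Fxr1 itself passed, lower at day 6 (−0.40, 0.0437).

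Opposite calls were few, 8 of 62. In 7 of them the divergent locus fell and the partner rose. XLOC_022846 (chr3:122322761-122332705), 65 bases from Fnbp1l, a membrane-bending protein gene, fell from 299, 202 and 387 to 91.3, 59.5 and 99.2 (−1.80 ± 0.35). Fnbp1l rose from 19566, 22888 and 20065 to 29968, 31464 and 28386 (0.52 ± 0.13, limma adjusted p = 0.0102), and the groups did not overlap at either locus. The rise of Fnbp1l was lost without day 6 replicate 1 or 2 (limma adjusted p of 0.0569 and 0.0695). XLOC_007824 (chr12:110730075-110777963, 9 exons, gap 1094 bases) lies between Dlk1, an imprinted Notch-related gene that rose by 5.85, and the unnamed XLOC_007237 (chr12:110779058-110900175). It fell from 359, 982 and 579 to 203, 208 and 234 (−1.45 ± 0.37), while XLOC_007237 rose from 49222, 55039 and 63207 to 138858, 146556 and 137302 (1.34 ± 0.14). XLOC_007237 counts as coding by the labels of the assembly alone, and whether it codes for a protein was not tested.

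XLOC_007586 (chr12:83261501-83267333, gap 2363 bases) fell by 2.29 ± 0.34 beside Sipa1l1, a gene of a GTPase-activating protein for Rap, which rose by 0.44 ± 0.13. XLOC_002741 (chr10:84002135-84017496, gap 5501 bases) changed by −1.01 ± 0.28 beside Ckap4, a gene of an endoplasmic reticulum membrane protein, at 0.55 ± 0.18. Since 70.5% of the exonic bases of XLOC_002741 are shared with another locus, its reads are uncertain. Without a day 6 library, Sipa1l1, Ckap4 and XLOC_002741 no longer passed (limma adjusted p from 0.0507 to 0.14), and XLOC_002741 also did not without day 0 replicate 3 (0.054). limma without its trend and robust options ended the calls of Sipa1l1 (0.0658) and Ckap4 (0.0844), quantile normalization that of Sipa1l1 (0.106) and edgeR's quasi-likelihood test that of Ckap4 (0.0553). The other four were the falls beside Tcf7l2, Dlgap4 and Cmtm8 and the rise of XLOC_009127 (chr13:23618503-23622810) beside the unnamed XLOC_008563. None of those divergent loci reached a mean of 100 normalized counts, and the largest ratio change was −4.54 ± 0.49 at Cmtm8. There XLOC_036960 was measured at 28.8, 24.9 and 31.9 and then 3.04, 7.18 and 3.13 normalized counts. It reached the minimum count for testing at day 0 alone. The size of its log2 change depended on the pseudocount, at −2.51 with 1, −2.64 with 0.5 and −1.97 with 4. All 8 ratios passed the test (limma adjusted p from 7.98e-05 to 0.00748). Calls at XLOC_021390 (Dlgap4), XLOC_009127 and XLOC_018606 (Tcf7l2) were lost without day 6 replicate 2 (0.141, 0.0918 and 0.0669), and the first also without any other library but day 0 replicate 2 (0.0661 to 0.093), under quantile normalization (0.0595) and with limma's library weights by stage (0.0717). XLOC_009127 was lost as well without day 6 replicate 1 (0.0861) and with those weights (0.0553). Dlgap4 itself did not pass without day 6 replicate 1 or 2 (0.0843 and 0.0849), under quantile normalization (0.107) or without limma's trend and robust options (0.0507).

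**Figure D5:**
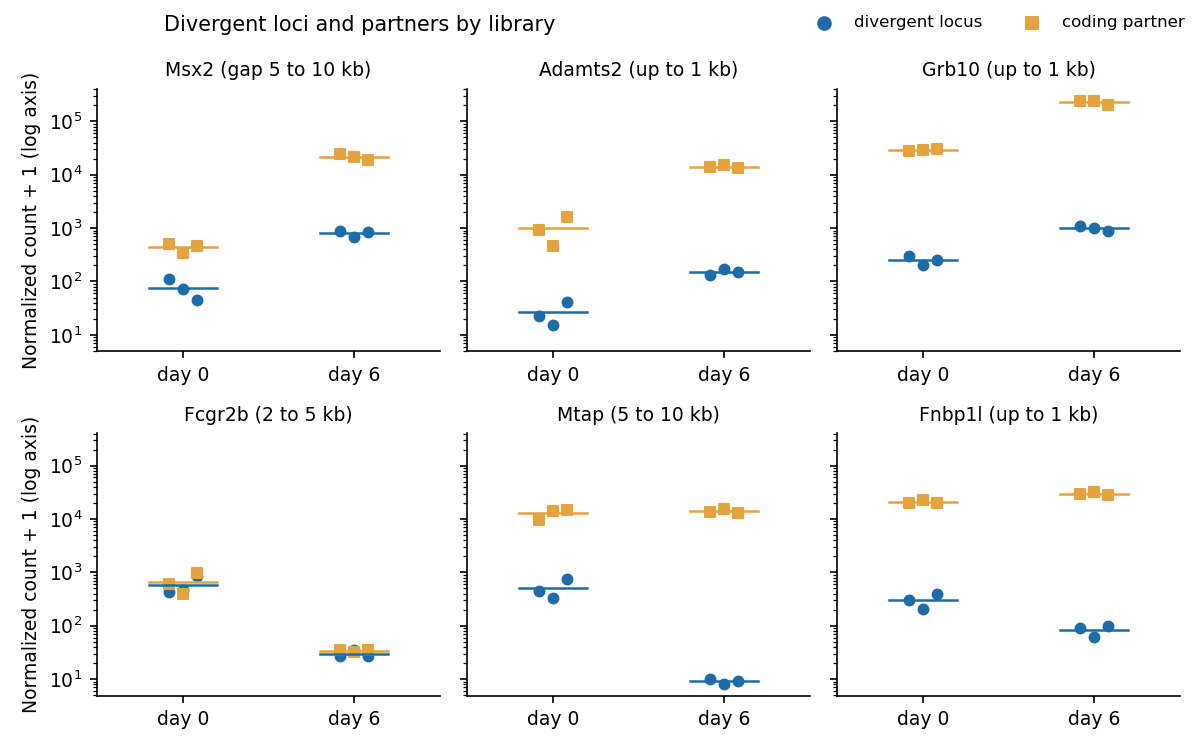
Normalized count plus 1 (log axis) of divergent loci (blue circles) and their partners (orange squares) in each of the 3 libraries at day 0 and day 6 for 6 partners, with lines at the group means. Both loci rise at Msx2, Adamts2 and Grb10 and fall at Fcgr2b, the divergent locus alone falls at Mtap (from 511 ± 220 to 8.22 ± 0.981, SD, n = 3), and the loci part at Fnbp1l.

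Several partners from signalling and chromatin pathways were picked after their values were seen. Beside Axin2, a feedback inhibitor and target gene of Wnt signalling, XLOC_006011 (chr11:108746078-108772085, gap 7118 bases) rose by 2.66 ± 0.69 and Axin2 by 2.27 ± 0.21. Beside Hey1, a Notch target gene, XLOC_022328 (chr3:8667478-8669914, gap 439 bases) rose by 1.85 ± 0.48 and Hey1 by 2.04 ± 0.25. At Cbx2, a Polycomb subunit gene, the rises were 1.66 ± 0.29 for XLOC_006108 (chr11:118872651-118876995, gap 7347 bases) and 1.51 ± 0.16. Without day 6 replicate 1, XLOC_006011 and XLOC_022328 no longer passed (limma adjusted p of 0.0531 and 0.0713). None of these 3 ratios passed the test, and each divergent locus was measured at 208 normalized counts or less in every library.

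Tet2, a gene of an enzyme that oxidizes methylcytosine, fell from 49970, 56579 and 35042 to 11622, 10187 and 10768, and XLOC_022889 (chr3:133207595-133248073, gap 191 bases) from 61.1, 66.3 and 82.8 to 24.3, 16.4 and 17.7. Rbpj, the DNA-binding effector gene of Notch signalling, fell by 1.42 ± 0.26. XLOC_027602 (chr5:53936262-53944213, gap 2646 bases) fell by 3.11 ± 0.56, although 58.8% of its exonic bases are shared with another locus. In the 12 other settings where XLOC_027602 could be tested, its log2 change ranged from −3.53 to −2.73, smallest with a pseudocount of 4. Beside Ptch1, the Hedgehog receptor gene, XLOC_008794 (chr13:63676375-63679120, gap 7149 bases) rose from 6.98, 4.14 and 3.99 to 45.6, 41.0 and 38.6 normalized counts. Ptch1 did not pass (−0.13 ± 0.16, limma adjusted p = 0.551), and the ratio rose by 2.98 ± 0.46. XLOC_008794 reached the minimum count for testing at day 6 alone. The size of its log2 change depended on the pseudocount, at 2.86 with 1, 2.97 with 0.5 and 2.35 with 4.

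Thy1 is both a partner and one of the 7 feeder markers. It went from 5251, 2995 and 8410 normalized counts to 465, 461 and 426, and XLOC_037254 (chr9:43818008-43849238, gap 2228 bases) from 97.7, 50.7 and 161 to 15.2, 15.4 and 15.7. At day 0 both were highest in replicate 3 and lowest in replicate 2. The summed feeder markers had the same order, but that sum includes Thy1 itself. Of the 7 markers Col1a2, Thy1 and Dcn fell, Postn rose and Col1a1, Col3a1 and Lum did not pass, and none was at 0. The part of feeder cells in this pair was not tested.

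At the 10 kb limit, the members just inside were XLOC_012257 (chr15:96540164-96560249), 9970 bases from Slc38a2, and XLOC_005748 (chr11:84755449-84761415), 9840 bases from Car4. Slc38a2 is an amino acid transporter gene and Car4 a carbonic anhydrase gene. XLOC_012257 had day 0 values of 275, 787 and 1090 and day 6 values of 216, 145 and 172, and shared 38.2% of its exonic bases with another locus. XLOC_005748 went from 57.6, 117 and 292 to 472, 414 and 389. Both passed the test in the full set (−1.81 ± 0.49 and 1.75 ± 0.53, limma adjusted p of 0.0168 and 0.0273). The first call was lost without day 0 replicate 3 or day 6 replicate 2 or 3 (0.0539 to 0.0647), the second without day 0 replicate 2 or any day 6 library (0.0567 to 0.0864) and in edgeR's quasi-likelihood test (0.0577). Just outside lay XLOC_006781 (chr12:4049004-4064058), 10053 bases from Efr3b, with day 0 and day 6 means of 49.9 and 7.88, and XLOC_035367 (chr8:87995049-88005877), 10638 bases from Gpt2, with 89.7 and 20.6.

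By exon structure 26 of the 310 divergent loci matched an annotated noncoding gene, 11 of them lincRNA genes, 10 antisense genes, 3 processed transcripts and 2 bidirectional promoter lncRNAs. Of the 25 that were tested, 2 rose and 8 fell, against 22.2% higher and 21.8% lower over all tested loci. The rises were Gm34376 beside Ube2d1 (2.13) and Gm11266 beside Nfib (1.94). Besides Gm12602, the largest falls were Gm40304 beside Rbpj (−3.11) and Gm26520 (−2.57).

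As a share of all normalized counts, the 310 loci together took 0.0434, 0.0359 and 0.0481% at day 0 and 0.0404, 0.0370 and 0.0391% at day 6. The groups overlapped, and the difference of −0.00362 percentage points gave an exact two-sided permutation p of 0.5, where 3 libraries against 3 cannot go below 0.1.

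The libraries held between 106306699 and 114092201 reads in the table. The fixed marker lists were matched in part. Of the 5 ES cell markers found, Klf4, Zfp42 and Esrrb fell and Nanog and Dppa3 did not pass. Of the 6 cardiac markers, Mesp1, Nkx2-5, Tbx5, Isl1 and Tnnt2 rose and Myh6 fell. The endoderm markers Afp, Ttr and Foxa2 rose, and Pax6, the neurectoderm marker found, fell.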

How the data were processed

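The authors sequenced poly(A)-selected RNA of 3 day 0 and 3 day 6 libraries with a HiSeq2000 instrument, as the labels' protocols state. Tools named in the submitters' processing notes, in no stated role, are DESeq (version not given), HTSeq 0.5.4p3, Cufflinks 2.1.1 and TopHat2 2.0.8, and the build is mm9. Strand handling during counting is not stated in the sources. The authors deposited a signal per locus and library, which the values show to be read counts divided by 1 size factor per library: 100% were whole multiples of 1 step per column within 0.01 reads. At day 0 replicate 3 the step, 0.997, is too close to 1 to be told from rounding. Size factors were 0.958 to 1.15. Columns left unused numbered 0.

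Divergent loci and gaps were taken from the authors' assembly in mm9 positions, with 2 ties for the nearest coding locus among members; 3 further loci on X or Y were left out. The files give no gene symbols. Loci were matched to GENCODE M21 genes (GRCm38) by identical ordered intron and internal exon lengths on the same chromosome and strand. That took at least 2 introns and a single gene, or any chain where the gene lies between the genes of the nearest named loci (871 loci, Msx2 and Ckap4 among them). For divergent loci any chain within 100 kb of the partner's gene was taken. No coordinate was carried between builds. Of 14321 coding loci 12630 were named, and 98.69% of 15368 neighbouring named pairs were in the same order in both. Of the partners 277 of 308 were named. Promoters are those of RefSeq, GRCm38.p6.

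limma 3.58.1 (R 4.3.3; trend and robust) was fitted to log2(normalized count + 1) of 17145 loci that reached 10 normalized counts in 3 or more libraries; the pseudocount understates changes of low loci. The ratio test used the difference of the log2 values of locus and partner over all 1503 pairs. Alternatives were other pseudocounts, filters, normalizations, gap limits and variance models, edgeR 4.0.16 and DESeq2 1.42.0 on recovered reads, and each replicate left out. The fits were also run on simulated counts drawn independently for each locus, which hold no library effect shared between loci. Each library held 106306699 reads or more, without molecular identifiers, so that duplicate reads of one molecule are counted.

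Loci named in the text were, among pairs with both loci tested, the 5 largest called rises and 5 largest falls whose stage means reached 100 normalized counts at one day, the 5 closest pairs with both called at that minimum, up to 4 opposite pairs, the 3 highest per exonic kilobase and the 3 highest by count, the 3 with the most exons, the 2 loci on each side of 10 kb, and their partners; others are said to be picked after their values were seen. The members, marker lists and rules were chosen with earlier results of these data known.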

Additional observations from a re-analysis of the deposited data

How the results depend on the processing

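Of 1145 values for the 73 named loci under the other settings, 1072 kept their direction and side of the threshold, 55 lost the call, 4 gained it and 14 changed sign, all 14 at loci with no call. In the 16 refits, 0 of the divergent loci called in the full fit were called with the other sign. The count of falls moved to 34 with a minimum of 50 normalized counts, and to 36 and 26 with gap limits of 5 and 2 kb; rises moved to 73 under quantile normalization. Ratio calls moved to 45 and 36 with those gap limits, where fewer pairs enter. Pearson r was 0.63 with the limit of 5 kb, and the difference in the share of counts was then 0.000635 percentage points (exact permutation p = 0.9), a change of sign. With each replicate left out, rises ranged from 26 to 52, falls from 32 to 61, ratio calls from 36 to 79, the share moving together from 82.5 to 93.1%, r from 0.531 to 0.572, rho from 0.498 to 0.518, and the share difference from −0.00691 to −0.00079. The lowest counts came without day 6 replicate 1 (26 rises) or 2 (36 ratio calls) and without day 0 replicate 3 (32 falls). With each replicate left out, 28.6 to 50.5% of all tested loci passed, against 44% with all libraries. edgeR's quasi-likelihood test called 40 rises and 60 falls and DESeq2 47 and 70, with 86.2 and 87.0% of pairs moving together.

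Sign changes of single loci were as follows. Under quantile normalization the log2 change of XLOC_024893 was −0.0128, that of XLOC_036797 −0.0932 and that of Mtap (XLOC_024434) −0.0469; XLOC_036797 was at −0.00071 in edgeR. With each replicate left out, XLOC_036797 ranged from −0.0956 (without day 0 replicate 1) to 0.24, through −0.0032 without day 6 replicate 3. Mtap ranged from −0.0692 (without day 0 replicate 1) to 0.239, Selenok (XLOC_010348) from −0.272 to 0.14 (without day 0 replicate 1), and Gli2 (XLOC_001218) from −0.079 (without day 0 replicate 2) to 0.465. Morf4l1 (XLOC_037753) ranged from −0.219 to 0.126 (without day 0 replicate 2), XLOC_020490 from −0.00094 (without day 0 replicate 3) to 0.259, and Ptch1 (XLOC_009394) from −0.271 to 0.00136 (without day 0 replicate 3). The cause was not tested.

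With the replicate number as a block, 49 divergent loci rose, 62 fell, 76 ratios were called and 85.1% of called pairs moved together. The deviations of same-numbered libraries correlated at 0.176, 0.134 and 0.074, and the labels name nothing that the numbers share. Since the third value is under 0.1, the numbers were not taken to pair the samples. As a hint from the data, not the design, each library correlated best with its own number.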
